A study of Mus musculus with 12 samples.

Results

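The 9 quiescent stellate cell genes, Lrat, Reln, Ngfr, Hgf, Ecm1, Colec11, Vipr1, Hand2 and Pth1r, were followed in the livers of mice with carbon tetrachloride (CCl4) fibrosis. They were taken by gene name from a table of 21936 mouse genes, and all 9 were found once in it. Hepatic stellate cells lie between the sinusoidal endothelium and the hepatocytes and, in the healthy liver, store vitamin A as retinyl esters in lipid droplets. On injury they lose these droplets, turn into contractile, collagen-producing myofibroblasts and become the main source of scar, and when the injury stops some of them return to an inactive state. Genes of retinoid storage, of secreted factors such as hepatocyte growth factor and of a set of surface receptors are used to mark the storing, quiescent state.

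Whole liver RNA of male C57BL/6 mice, which were 6 weeks old on purchase, was sequenced in 3 groups with 3 libraries each. CCl4, a hepatocyte poison, was injected intraperitoneally into all of them at 1 mL/kg, 2 times a week over 8 weeks, so that the groups used as controls had been injured as well. LFG, the liver fibrosis group, was sacrificed at the end of CCl4. REG, the regression group, recovered for another 4 weeks with tail vein injections of 200 µL of phosphate-buffered saline (PBS) 2 times a week, and in hADMSCs-Exo the same volume of PBS carried 250 µg of exosomes, small vesicles that human mesenchymal stem cells from fat tissue (hADMSCs) release. REG against LFG thus compares livers after recovery with livers at the end of CCl4, and recovery cannot be told apart there from the PBS injections and the 4 weeks of added age. hADMSCs-Exo against REG adds the exosomes, and hADMSCs-Exo against LFG holds both. The 3 samples given hADMSCs themselves were not analysed here, nor was any uninjured liver, so the levels before CCl4 are not known. The labels do not say whether each library was 1 mouse, and p-values measure the spread between these libraries only.

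Total counts lay between 13837445 and 19840917 per library, of which the 9 members took 909 to 3877. The liver was present as labelled in every library, with albumin (Alb) at 64265 to 139494 CPM (counts scaled to a common library size with edgeR's TMM factors). LFG 3 stood apart from LFG 1 and LFG 2. On the first principal component, which held 48.7% of the variance, it scored 96.5 against -79.3 and -56.4, beyond all 6 libraries of the other groups (-17.6 to 17.1). It was also the LFG library lowest in all 9 members. The mean of its activated myofibroblast genes was the lowest of all 9 libraries, which goes against its label as a fibrosis library. The members' fold changes against LFG, and the medians of the gene lists that hold no cell type markers, are therefore given with and without LFG 3. This choice rests in part on the members' own values. Leaving out the LFG library lowest in all 9 members moves their fold changes against LFG down, so the values without LFG 3 are a description and no separate support. In RNA from whole liver, fewer stellate cells and less RNA per stellate cell cannot be told apart.

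Pairs of groups were compared on the deposited counts by the quasi-likelihood test of edgeR (two-sided), over all genes left by its filter on low counts. A gene was called where its adjusted p (Benjamini-Hochberg over all genes tested) was under 0.05 and its log2 fold change was 1 or more in either direction. These are the study's thresholds, while the submitters' notes name DESeq and not edgeR. All 9 members passed the filter in each comparison. Every adjusted p printed here is from this test unless another is named, and SE is the standard error of the log2 fold change before it.

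The members lie on chromosomes 3, 5, 8, 9, 11 and 12 of GRCm38 and are all protein coding, and positions of the whole gene are given with each. To place the members beside the transcription factors known for stellate cells, the 250 bases before each start (RefSeq, GRCm38.p6) were searched on both strands for CANNTG, the E-box bound by proteins such as HAND2, for its form CATCTG, for AGATAA and TGATAA, which GATA factors bind, for AGGTCA, a nuclear receptor half-site, and for TAATTA, bound by LIM homeobox factors such as LHX2. All 9 members had a promoter in the table. The E-box was in 8 of 9, in all but Vipr1, and in 66.2% of the 32851 promoters of the table. CATCTG was in Ecm1 and Hand2 (14.4% of all promoters), AGATAA in Colec11 and Hand2 (9.99%), TGATAA (7.94%) and TAATTA (4.84%) in Hand2, and AGGTCA in none of the 9 (14.0%). The 3 promoters with a match other than the general E-box are shown in the direction of transcription, with the matches in capitals on either strand. They come from chr8:57320733-57320982 (plus strand) for Hand2, chr3:95739570-95739819 (minus strand) for Ecm1 and chr12:28623331-28623580 (minus strand) for Colec11.
Hand2: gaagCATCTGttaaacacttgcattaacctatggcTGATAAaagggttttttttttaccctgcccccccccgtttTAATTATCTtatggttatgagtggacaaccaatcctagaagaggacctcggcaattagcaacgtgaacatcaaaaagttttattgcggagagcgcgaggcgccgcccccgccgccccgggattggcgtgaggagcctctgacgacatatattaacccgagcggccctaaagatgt
Ecm1: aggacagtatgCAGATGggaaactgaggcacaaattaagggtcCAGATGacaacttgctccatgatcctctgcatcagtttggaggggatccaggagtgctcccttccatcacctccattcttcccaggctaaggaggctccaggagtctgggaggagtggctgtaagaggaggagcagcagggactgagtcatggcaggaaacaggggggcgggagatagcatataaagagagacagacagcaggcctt
Colec11: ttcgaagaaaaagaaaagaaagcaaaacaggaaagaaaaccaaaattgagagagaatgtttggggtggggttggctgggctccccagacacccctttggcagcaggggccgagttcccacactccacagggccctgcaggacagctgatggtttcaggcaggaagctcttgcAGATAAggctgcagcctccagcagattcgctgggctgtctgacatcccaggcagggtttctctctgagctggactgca
In Hand2 the TAATTA match runs into AGATAA, read here on the other strand as TTATCT. In Ecm1 CATCTG is read on the other strand in both of its places. These are matches of letters, and no binding was measured.

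Per length, Ecm1 and Colec11 stood well above the other members. FPKM (fragments scaled by gene length and library total) averaged 19.5 ± 6.75 (SD, n = 9 libraries) for Ecm1 and 12.9 ± 6.13 for Colec11, and Ecm1 was the higher in all 9 libraries. Vipr1 (2.85 ± 1.11), Hand2 (2.51 ± 1.65), Lrat (1.85 ± 1.18), Pth1r (1.80 ± 0.609) and Reln (1.08 ± 0.648) followed, and Hgf (0.536 ± 0.662) and Ngfr (0.405 ± 0.322) came last. This order pools the groups and was not the same in each. Of the 5 genes from Vipr1 to Reln, Hand2 had the highest mean in LFG (3.66, with Vipr1 at 2.33 and Pth1r at 1.31), and Vipr1 in REG (3.56, with Hand2 at 2.37 and Pth1r at 2.36). Over the 9 libraries ranges overlapped between all neighbours. The difference of the means was larger than both SDs from Colec11 to Vipr1 and from Pth1r to Reln, and smaller than the larger SD between all other neighbours. Lrat and Pth1r had nearly the same mean, and Lrat was above Pth1r in 2 of the 9 libraries.

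**Figure D1:**
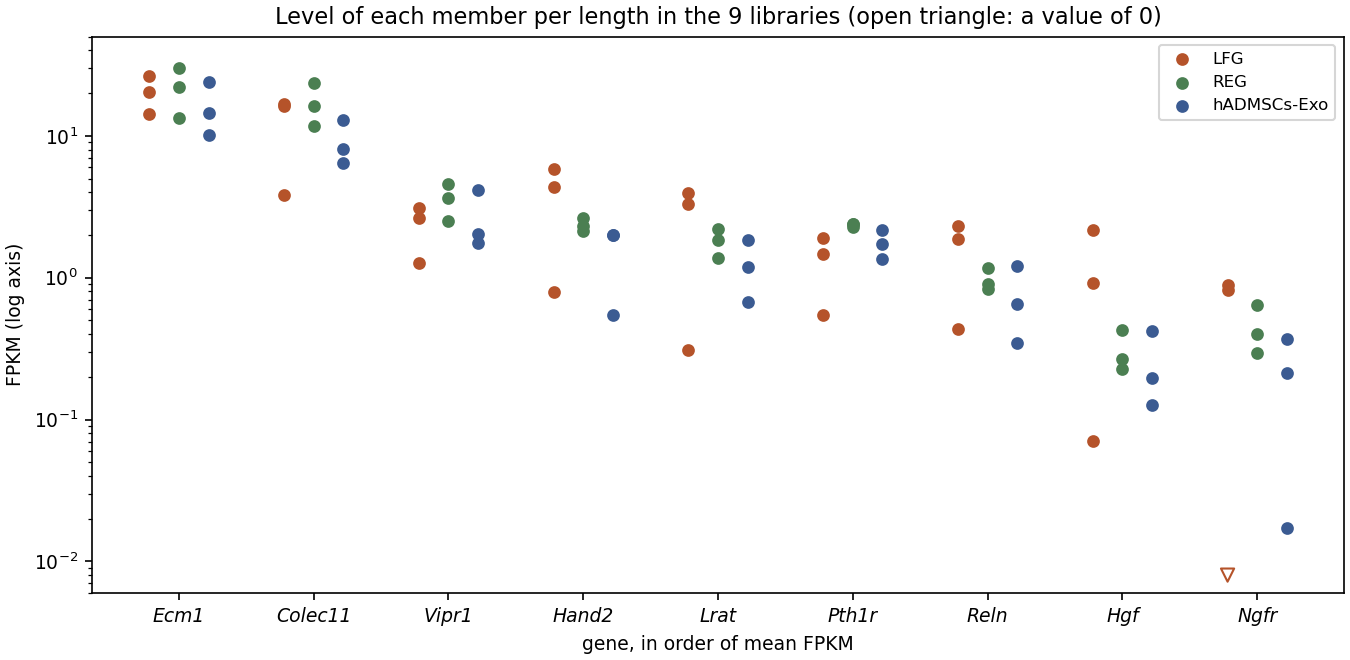
FPKM of each member (log axis) in the 9 libraries, one point per library and one colour per group, with genes in order of their mean over the 9 libraries. Ecm1 and Colec11 have means of 19.5 and 12.9, and the open triangle marks Ngfr in LFG 3, where its value was 0.

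Lrat encodes lecithin retinol acyltransferase, the enzyme that makes the stored retinyl esters (chromosome 3, 82892579 to 82903973, minus strand). Libraries are given in the order 1, 2, 3 from here on. Lrat had 15.3, 16.3 and 2.05 CPM in LFG, 10.0, 12.9 and 7.69 CPM in REG, and 3.49, 9.70 and 6.80 CPM in hADMSCs-Exo. LFG 1 and LFG 2 were thus above all 6 libraries of the recovered groups, and LFG 3 was below them all. Against LFG the log2 fold change was -0.13 in REG (SE 0.66, adjusted p = 0.957) and -0.77 in hADMSCs-Exo (SE 0.74, adjusted p = 0.898). Without LFG 3 these were -0.58 (SE 0.24, adjusted p = 0.124) and -1.23 (SE 0.37, adjusted p = 0.0882), neither of them called. The direction in REG was not stable, with 0.16 without LFG 1, 0.22 without LFG 2, 0.073 without REG 3 and 0.23 with a replicate block. In hADMSCs-Exo against REG it was -0.61 (SE 0.36, adjusted p = 0.596), and the 2 groups overlapped.

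Hgf (chromosome 5, 16553495 to 16620152, plus strand) encodes hepatocyte growth factor, the ligand of the receptor MET on hepatocytes. It had 11.3, 6.09 and 0.625 CPM in LFG, 3.14, 1.76 and 2.02 CPM in REG, and 0.888, 3.01 and 1.51 CPM in hADMSCs-Exo. LFG 1 and LFG 2 were above each of the 6 recovered libraries, whereas LFG 3, with 7 counts, was below each of them. With all 3 LFG libraries the log2 fold change was -1.38 in REG (SE 0.86, adjusted p = 0.57) and -1.76 in hADMSCs-Exo (SE 0.94, adjusted p = 0.814). Without LFG 3, Hgf was called in both, at -1.88 in REG (SE 0.38, adjusted p = 0.0232) and -2.26 in hADMSCs-Exo (SE 0.51, adjusted p = 0.0436). Without LFG 1, the highest library, it was at -0.54 in REG and -0.92 in hADMSCs-Exo, with no call. Limma's voom keeps all libraries, but its quality weights let divergent ones count less. It called Hgf in REG (-1.69, adjusted p = 0.0374) and not in hADMSCs-Exo (-2.04, adjusted p = 0.097). This call is thus not separate from the result without LFG 3. Over all alternatives the adjusted p ran from 0.0232 to 0.93 for REG and from 0.0436 to 1 for hADMSCs-Exo. Between hADMSCs-Exo and REG the log2 fold change was -0.35 (SE 0.48, adjusted p = 0.825), and it was -0.027 without hADMSCs-Exo 1 and -0.94 without hADMSCs-Exo 2.

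Reln (chromosome 5, 21884454 to 22344702, minus strand) encodes reelin, a large secreted glycoprotein that binds the lipoprotein receptors VLDLR and LRP8. Its values were 39.6, 41.0 and 12.9 CPM in LFG, 28.5, 23.3 and 20.6 CPM in REG, and 7.99, 28.3 and 16.7 CPM in hADMSCs-Exo. Its order of groups was that of Lrat, with LFG 1 and LFG 2 above the 6 recovered libraries, but here hADMSCs-Exo 1 and not LFG 3 was the lowest of all. Reln differed from LFG by -0.36 in REG (SE 0.42, adjusted p = 0.763) and by -0.84 in hADMSCs-Exo (SE 0.58, adjusted p = 0.859). Without LFG 3 the REG value was -0.70 (SE 0.18) with an adjusted p of 0.0406, which passed the threshold on p and not that on fold change, and over all alternatives that adjusted p ran from 0.0406 to 0.961. In hADMSCs-Exo the value without LFG 3 was -1.18 (SE 0.43, adjusted p = 0.13). Against REG, Reln in hADMSCs-Exo was at -0.45 (SE 0.39, adjusted p = 0.714).

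The other secreted members, Ecm1 and Colec11, had another order. Ecm1 (chromosome 3, 95734147 to 95739569, minus strand) encodes extracellular matrix protein 1, a glycoprotein that hepatocytes make too. It had 48.7, 47.4 and 44.7 CPM in LFG, 77.7, 60.5 and 35.6 CPM in REG, and 24.8, 59.9 and 39.5 CPM in hADMSCs-Exo. Ecm1 was the member in which LFG 3 was closest to LFG 1 and LFG 2, and all 3 pairs of groups overlapped. Its log2 fold changes were 0.32 in REG against LFG (SE 0.29, adjusted p = 0.694), -0.19 in hADMSCs-Exo against LFG (SE 0.31, adjusted p = 0.948) and -0.49 in hADMSCs-Exo against REG (SE 0.36, adjusted p = 0.668). Against LFG the first 2 were 0.31 (SE 0.30) and -0.20 (SE 0.33) without LFG 3, and the second turned to 0.094 without hADMSCs-Exo 1. The 10 hepatocyte markers summed to 85490, 140102 and 168307 CPM in LFG, 169627 to 176792 CPM in REG and 126795 to 144405 CPM in hADMSCs-Exo, and their part in the values of Ecm1 was not tested.

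Colec11 (chromosome 12, 28594173 to 28623377, minus strand) encodes collectin-11, a secreted lectin that starts the lectin pathway of complement together with the MASP proteases. It had 19.1, 25.1 and 7.68 CPM in LFG, 39.3, 28.4 and 20.1 CPM in REG, and 10.2, 20.7 and 14.0 CPM in hADMSCs-Exo. The REG libraries were the highest as a group, though REG 3 was below LFG 2 and hADMSCs-Exo 2. Between hADMSCs-Exo and REG the log2 fold change was -0.97 (SE 0.32, adjusted p = 0.414), and Colec11 was the 1 member with an unadjusted p under 0.05 in that comparison (0.0156). Against LFG it was at 0.77 in REG (SE 0.45, adjusted p = 0.548) and at -0.23 in hADMSCs-Exo (SE 0.47, adjusted p = 0.959), and at 0.45 (SE 0.29) and -0.55 (SE 0.30) without LFG 3. The value in hADMSCs-Exo turned to 0.14 without LFG 2 and to 0.016 without hADMSCs-Exo 1.

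**Figure D2:**
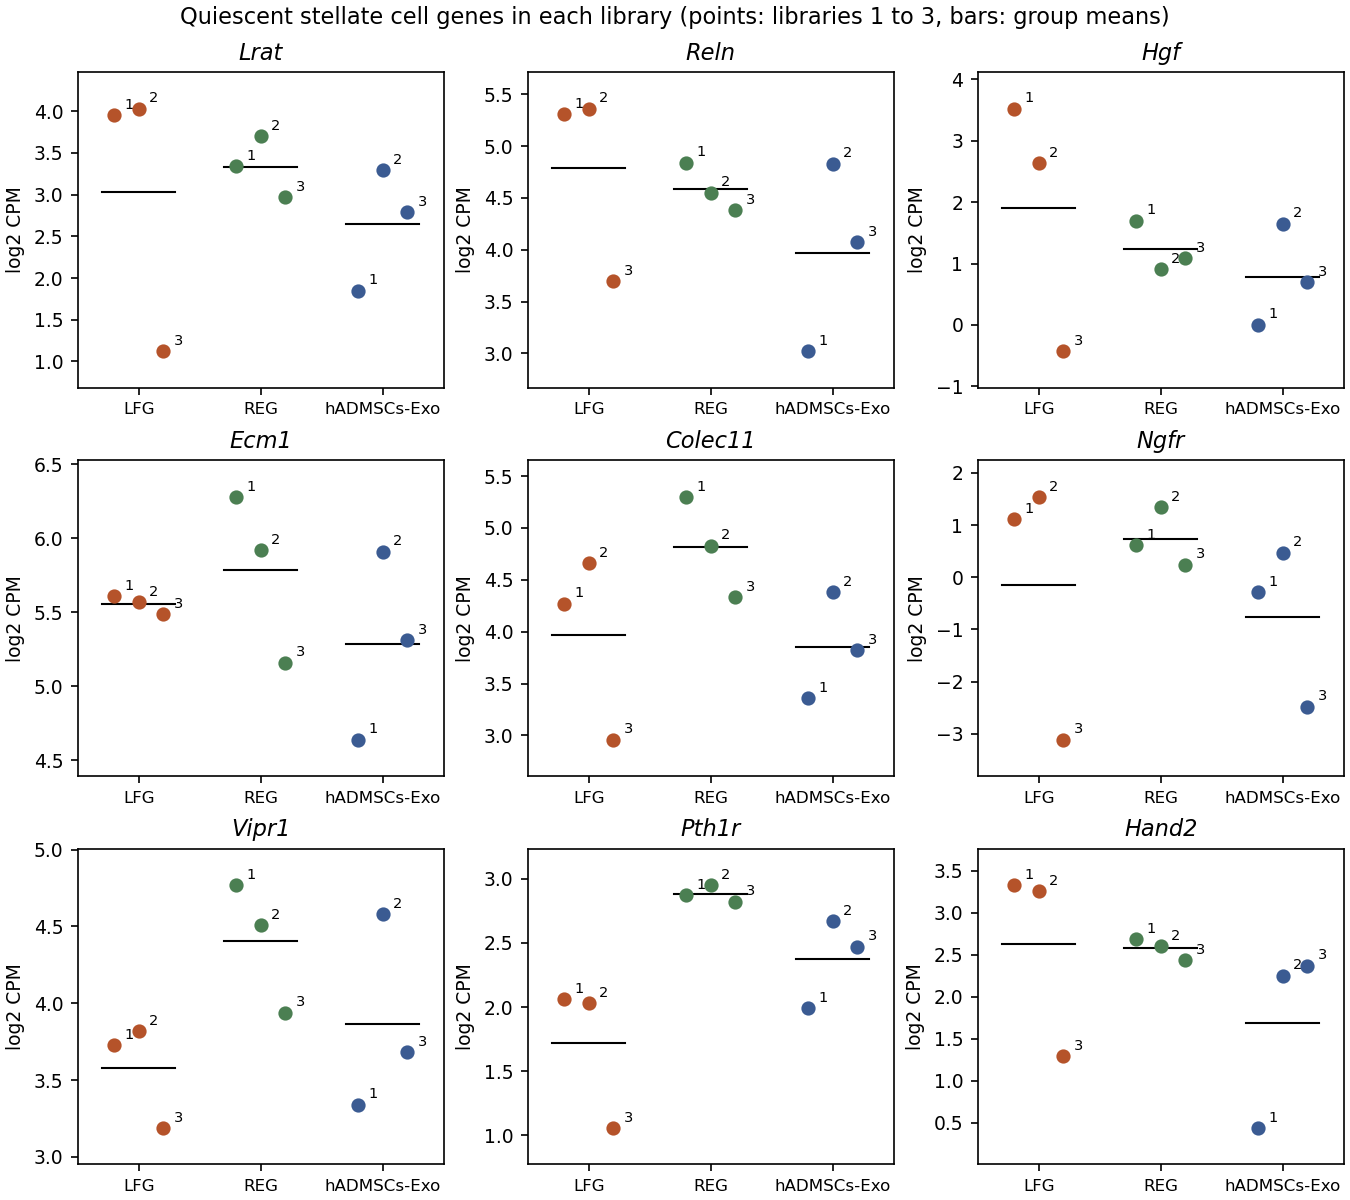
Log2 CPM of the 9 members (prior count of 2), one panel per gene with its own axis, points for the libraries numbered 1 to 3 and bars for group means. LFG 3 is the lowest LFG library in all 9 panels, hADMSCs-Exo 1 is the lowest of its group in 8, and the 3 REG libraries of Pth1r and Vipr1 are above the 3 LFG libraries.

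Of the receptors, Pth1r and Vipr1 were higher in REG than in LFG in every library. Pth1r (chromosome 9, 110722085 to 110747145, minus strand) encodes the receptor of parathyroid hormone and its related peptide. It had 4.04, 3.97 and 1.97 CPM in LFG, 7.21, 7.63 and 6.95 CPM in REG, and 3.85, 6.27 and 5.42 CPM in hADMSCs-Exo. The REG libraries were close together (7.26 ± 0.345 CPM, SD, n = 3), and each was above each LFG and each hADMSCs-Exo library. The log2 fold change of REG against LFG was 1.13 (SE 0.35, adjusted p = 0.377, unadjusted p = 0.0141). It was 0.90 without LFG 3 (SE 0.24, adjusted p = 0.043), and over all alternatives it ran from 0.84 to 1.29, with adjusted p-values from 0.0247 to 0.928 and no call. hADMSCs-Exo was at -0.49 against REG (SE 0.23, adjusted p = 0.525) and at 0.62 against LFG (SE 0.40, adjusted p = 0.854), or 0.38 without LFG 3 (SE 0.31). Pth1r overlaps Myl3 on the other strand, and Myl3 had 1 count in 1 library and 0 in the other 8.

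Vipr1 (chromosome 9, 121642716 to 121672954, plus strand) encodes a receptor of vasoactive intestinal peptide. It had 13.1, 14.0 and 9.02 CPM in LFG, 27.2, 22.7 and 15.3 CPM in REG, and 10.0, 23.7 and 12.7 CPM in hADMSCs-Exo. Here too the 3 REG libraries were above the 3 LFG libraries, while hADMSCs-Exo spanned both groups. REG differed from LFG by 0.86 (SE 0.29, adjusted p = 0.388, unadjusted p = 0.0203), and by 0.73 without LFG 3 (SE 0.26, adjusted p = 0.0863, range over all alternatives 0.0624 to 0.928). hADMSCs-Exo was at -0.49 against REG (SE 0.34, adjusted p = 0.648) and at 0.35 against LFG (SE 0.37, adjusted p = 0.91), or 0.20 without LFG 3 (SE 0.35) and -0.091 without hADMSCs-Exo 2.

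The third receptor, Ngfr (chromosome 11, 95568818 to 95587735, minus strand), encodes the low-affinity neurotrophin receptor p75 and was the member with the fewest reads. Its counts were 49, 50 and 0 in LFG, 23, 44 and 20 in REG, and 12, 21 and 1 in hADMSCs-Exo. The count of 0 in LFG 3 allows up to 0.268 CPM there (3 counts, counting error only), against 2.06 and 2.79 CPM in LFG 1 and LFG 2. These 2 were above all 3 hADMSCs-Exo libraries (0.710, 1.27 and 0.0630 CPM) and overlapped with REG (1.42, 2.42 and 1.06 CPM). The log2 fold change was -1.25 in hADMSCs-Exo against REG (SE 0.72, adjusted p = 0.59) and -1.28 against LFG (SE 1.30, adjusted p = 0.906). Without LFG 3 the latter was -1.81 (SE 0.78, adjusted p = 0.179). Single hADMSCs-Exo libraries changed both values, to -2.04 and -2.06 without hADMSCs-Exo 2 and to -0.72 and -0.73 without hADMSCs-Exo 3, which had 1 count, and without LFG 2 the value against LFG was -0.68. REG was at -0.0056 against LFG (SE 1.03, adjusted p = 0.999) and at -0.52 without LFG 3 (SE 0.46, adjusted p = 0.434), and it turned to 0.20 without LFG 1 and 0.60 without LFG 2.

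Hand2 (chromosome 8, 57320983 to 57324633, plus strand), which encodes the basic helix-loop-helix transcription factor among the members, followed Lrat, Reln and Hgf. It had 9.94, 9.44 and 2.32 CPM in LFG, 6.34, 5.93 and 5.31 CPM in REG, and 1.24, 4.64 and 5.04 CPM in hADMSCs-Exo. LFG 1 and LFG 2 were above all 6 recovered libraries, and each of the 3 REG libraries was above each hADMSCs-Exo library. In hADMSCs-Exo against REG the log2 fold change was -0.69 (SE 0.45, adjusted p = 0.629), and -0.28 without hADMSCs-Exo 1 (SE 0.25). Against LFG, REG was at -0.30 (SE 0.51, adjusted p = 0.845) and hADMSCs-Exo at -1.01 (SE 0.70, adjusted p = 0.859). Without LFG 3 they were at -0.68 (SE 0.22, adjusted p = 0.0663) and -1.40 (SE 0.51, adjusted p = 0.126), and without LFG 1 REG was at 0.0022. Hand2 overlaps Hand2os1 on the other strand, and Lrat, Reln, Hgf and Ecm1 overlap RNA genes or pseudogenes of the annotation. The use of strand in the counting is not given in the sources used here, so reads of such neighbours may be in these counts.

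Over the 9 members together, in REG against LFG 5 were lower and 4 higher, with a median log2 fold change of -0.0056, beside -0.068 over all 12517 genes tested. None was called, and of all genes 0% were called. An unadjusted p under 0.05 was reached by 2 members, Pth1r and Vipr1, and by 11.3% of all genes. The same 2 were higher in REG with groups that did not overlap, as were 8.91% of all genes, and 0 members were lower in this way (10.0% of all genes). Without LFG 3 the median was -0.52, beside -0.0051 over 12948 genes, and 1 member, Hgf, was called, beside 10.7% of all genes. Lrat, Reln, Hgf and Hand2 were then lower without overlap (29.8% of all genes), and Pth1r and Vipr1 higher (25.8%). DESeq2 called 0 members with all libraries. Limma's voom, whose quality weights let divergent libraries count less, called 1, Hgf.

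For hADMSCs-Exo against LFG, which shares the LFG libraries with the comparison above, 7 members were lower and 2, Vipr1 and Pth1r, higher. The median log2 fold change was -0.77, beside -0.059 over 12489 genes. edgeR called none of the members and 0% of all genes, and DESeq2 and voom called 0 members as well. No member had an unadjusted p under 0.05 (5.98% of all genes) or lay lower without overlap (5.93%). Without LFG 3 the median was -1.18, beside 0.0041 over 12955 genes. Hgf was then called, beside 5.97% of all genes, and Lrat, Reln, Ngfr, Hgf and Hand2 were lower without overlap, 5 of 9 beside 25.7% of all genes. The median was -0.42 without LFG 2, -0.47 without LFG 1 and -0.44 without hADMSCs-Exo 1.

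All 9 members were lower in hADMSCs-Exo than in REG, by log2 fold changes of -0.35 (Hgf) to -1.25 (Ngfr), with a median of -0.49 beside 0.0080 over all 12337 genes, of which 48.9% were lower. None of these differences was called. By the same rule 0.00811% of all genes (1 gene) were called, and DESeq2 and voom called 0 members. Colec11 had an unadjusted p under 0.05, as had 10.0% of all genes. Pth1r and Hand2 were lower without overlap, 2 of 9 members, beside 7.49% of all genes. The 9 values come from the same 6 libraries and are not independent of one another. The median was -0.28 without hADMSCs-Exo 1, -0.94 without hADMSCs-Exo 2 and -0.75 without REG 3, so its size changed with single libraries. Without hADMSCs-Exo 1 and without hADMSCs-Exo 2, Lrat was at -0.31 and -0.99, Reln at -0.11 and -0.97, Ecm1 at -0.23 and -0.85 and Vipr1 at -0.26 and -0.94. hADMSCs-Exo 1 was the lowest of its group in 8 members and hADMSCs-Exo 2 the highest in 8.

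**Figure D3:**
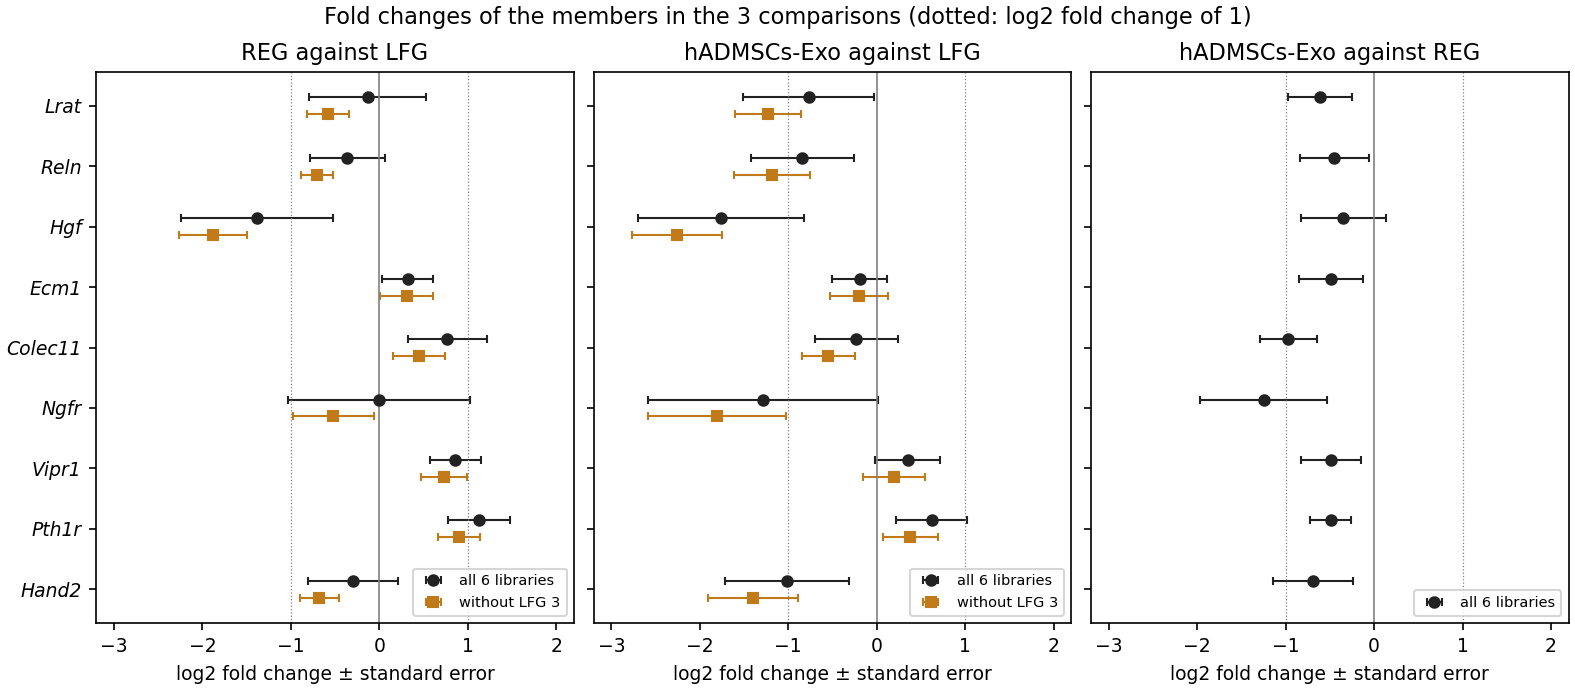
Log2 fold change ± standard error of the 9 members in REG against LFG, hADMSCs-Exo against LFG and hADMSCs-Exo against REG, with all 6 libraries (circles) and without LFG 3 (squares). Hgf without LFG 3 is at -1.88 and -2.26 in the first and second panel, Pth1r and Vipr1 are on the higher side in both, and all 9 members are below 0 in the third.

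The members varied together over the libraries. Over the 9 libraries the 36 pairs of members had a median Pearson's r of 0.667 in log2 CPM, from 0.257 (Hgf and Pth1r) to 0.951 (Reln and Hand2). Over the 8 libraries without LFG 3 the median was 0.589, from -0.292 (Hgf and Pth1r) to 0.958 (Lrat and Reln). These are descriptions across libraries that share their depth, scaling and group. The lowest library of the 9 was LFG 3 in 6 members and hADMSCs-Exo 1 in the other 3. The highest was LFG 1 or LFG 2 in 5 members (Lrat, Reln, Ngfr, Hgf and Hand2) and REG 1 or REG 2 in 4 (Ecm1, Colec11, Vipr1 and Pth1r).

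Outside the members, 10 genes had a profile most like the mean of the 9, by Pearson's r over the 9 libraries among 11930 genes with a mean of at least 1 CPM. They were Rgs5 (0.989), Il34 (0.980), Sod3 (0.976), Jam2 (0.973), Gdf2 (0.972), Elk3 (0.971), Icam2 (0.969), Plxnc1 (0.968), Cnr2 (0.966) and Lama1 (0.966), where the median gene had r = -0.0663. Without LFG 3, 5 of the 10 were still among the 10 most alike (Rgs5, Il34, Sod3, Icam2 and Cnr2), and Rspo3 came first with r = 0.990. Rgs5 is in the list of stellate cell identity and Rspo3 among the vascular endothelium markers.

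Other genes of stellate cell identity (structural proteins, receptors and transcription factors, 24 in the table) were for the most part lower in all 3 comparisons. In hADMSCs-Exo against REG 19 of 22 tested were lower, with a median log2 fold change of -0.67, none was called, and 6 had an unadjusted p under 0.05 (10.0% of all genes), of which 5 were lower. The receptor gene Pdgfrb had 13.1, 13.8 and 8.97 CPM in REG and 6.63, 7.41 and 7.12 CPM in hADMSCs-Exo (log2 fold change -0.76, SE 0.21, adjusted p = 0.402). Desmin (Des), an intermediate filament protein, was at -1.09 (SE 0.34, adjusted p = 0.407) and the integrin gene Itga8 at -1.55 (SE 0.50, adjusted p = 0.411), both without overlap. In REG against LFG, Angptl6 was at 1.34 (SE 0.40, adjusted p = 0.357), with 2.40, 2.24 and 4.82 CPM in LFG and 7.33, 9.72 and 6.58 CPM in REG. The chemokine gene Cxcl12 was at 0.48 (SE 0.25, adjusted p = 0.517) in REG and at 0.47 (SE 0.23, adjusted p = 0.806) in hADMSCs-Exo against LFG. Without LFG 3, Angptl6 was called in REG (1.81, SE 0.30, adjusted p = 0.0159) and Cxcl12 in neither (0.59, SE 0.25, and 0.56, SE 0.23). The list had medians of -0.38 in REG (16 of 22 lower) and -1.06 in hADMSCs-Exo against LFG (17 of 22 lower), with 0 genes called. Without LFG 3 the medians were -0.71 and -1.50, and 5 of 22 genes were called lower and 1 higher in REG (10.7% of all genes), and 8 lower in hADMSCs-Exo (5.97% of all genes).

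Genes of the activated state spread more widely over the LFG libraries than the members. The list of 25 activated myofibroblast genes holds collagens, contractile proteins and matrix enzymes, shares Pdgfrb with the list of identity, Acta2 and Tagln with the smooth muscle markers and Spp1 with the cholangiocyte markers, and its mean per library, in log2 CPM relative to each gene's average over the 9 libraries, was 2.30, 1.92 and -1.90 in LFG, 0.29, 0.39 and -0.14 in REG, and -1.64, -0.55 and -0.66 in hADMSCs-Exo. The members, on the same scale, were at 0.65, 0.65 and -1.31 in LFG, 0.60, 0.48 and 0.038 in REG, and -0.96, 0.33 and -0.48 in hADMSCs-Exo. The libraries highest and lowest in activated genes were thus also the highest and lowest in the mean of the members. Single members differed in this, and in REG against LFG 4 of the 9 members were higher while 0 of 22 activated genes were. The difference between the 2 means was -1.65 and -1.27 in LFG 1 and LFG 2, 0.59 in LFG 3, 0.089 to 0.31 in REG and 0.18 to 0.88 in hADMSCs-Exo. From the mean of the stellate cell identity genes the members differed less. That difference was -0.23 to -0.13 in LFG, 0.11 to 0.24 in REG and -0.082 to 0.17 in hADMSCs-Exo. In hADMSCs-Exo against REG 20 of 23 activated genes were lower, with a median of -1.17, none was called and 17 had an unadjusted p under 0.05, all of them lower (10.0% of all genes in either direction).

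Of the activated genes, Acta2, which encodes smooth muscle actin, had 7.33, 11.1 and 4.03 CPM in REG and 0.355, 1.27 and 2.08 CPM in hADMSCs-Exo (log2 fold change -2.60, SE 0.58, adjusted p = 0.358). The gelatinase gene Mmp2 was at -1.81 (SE 0.35, adjusted p = 0.358) and the collagen gene Col3a1 at -1.73 (SE 0.36, adjusted p = 0.358), both without overlap. The paper lists Acta2, Mmp2, Col3a1, Des and Itga8 among its genes lower in hADMSCs-Exo than in REG. Col3a1 shows the split of LFG, with 550, 328 and 7.68 CPM in its 3 libraries. In REG against LFG the list had a median of -1.20 and in hADMSCs-Exo against LFG of -2.87, with 0 genes called in either. Without LFG 3 these were -1.73 and -3.38, with 18 and 19 of 23 genes called lower, beside 10.7% and 5.97% of all genes.

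**Figure D4:**
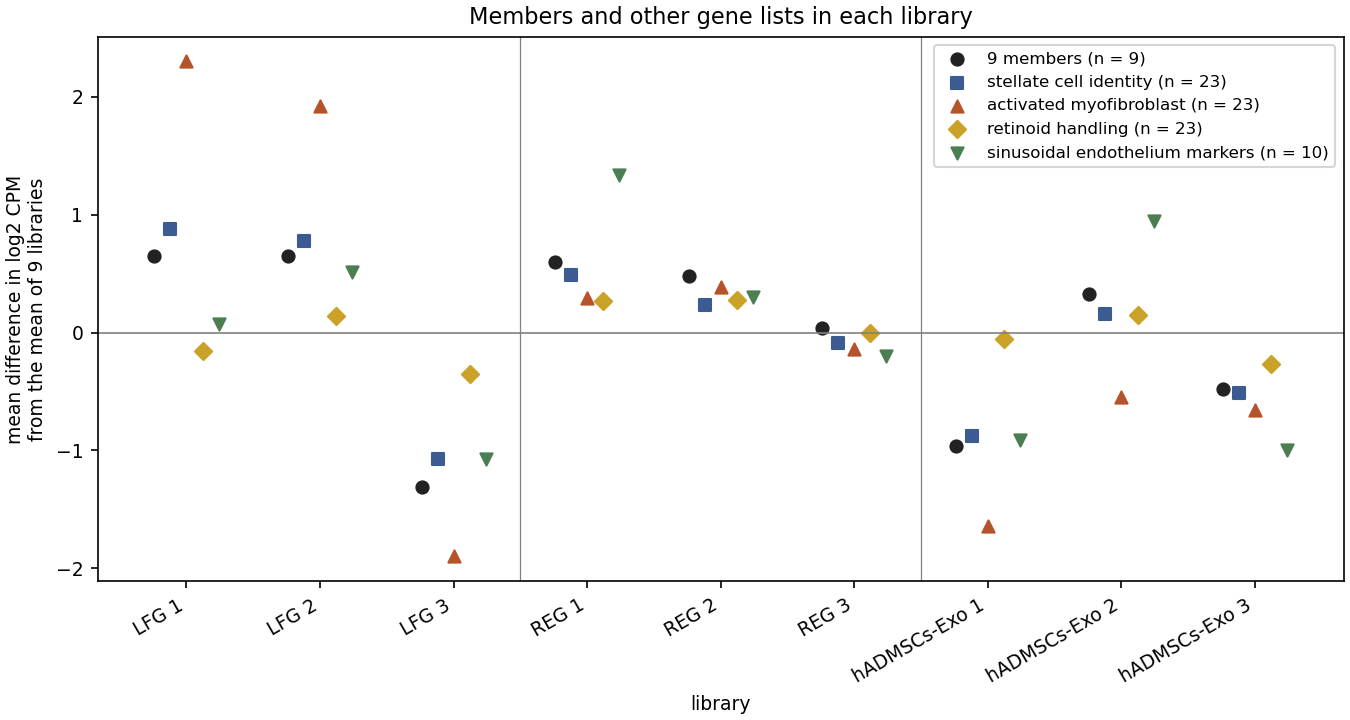
Mean log2 CPM relative to each gene's average over the 9 libraries, for the 9 members, 3 other gene lists and the sinusoidal endothelium markers, one point per list and library, with n the genes used. LFG 1 and LFG 2 are high and LFG 3 is low in the members (0.65, 0.65 and -1.31) and more so in activated myofibroblast genes (2.30, 1.92 and -1.90).

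Retinoid handling genes other than Lrat (28 in the table: binding proteins, retinol and retinal enzymes, receptors and retinyl ester lipases) had medians of -0.086 in hADMSCs-Exo against REG (17 of 22 lower), 0.23 in REG against LFG (14 of 22 higher) and 0.074 in hADMSCs-Exo against LFG (13 of 23 higher), with 0 called in each. The retinoid receptor gene Rxrg had 2.11, 1.96 and 2.59 CPM in LFG, 7.70, 7.25 and 5.78 CPM in REG, and 4.38, 3.80 and 5.67 CPM in hADMSCs-Exo. The 3 groups did not overlap, in the order LFG, hADMSCs-Exo, REG, and LFG 3 was here close to the other LFG libraries. REG differed from LFG by 1.65 (SE 0.30, adjusted p = 0.262), hADMSCs-Exo from LFG by 1.05 (SE 0.34, adjusted p = 0.805) and hADMSCs-Exo from REG by -0.58 (SE 0.24, adjusted p = 0.486). Without LFG 3, Rxrg was called in REG (1.81, SE 0.29, adjusted p = 0.0156) and not in hADMSCs-Exo (1.19, SE 0.34, adjusted p = 0.0743).

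Rdh11, a retinal reductase gene, had 32.1, 57.5 and 52.4 CPM in LFG, 80.3, 125 and 88.0 CPM in REG, and 40.7, 59.5 and 47.2 CPM in hADMSCs-Exo. REG was above both other groups in each library, by 1.05 over LFG (SE 0.29, adjusted p = 0.323), and hADMSCs-Exo was at -0.99 against REG (SE 0.20, adjusted p = 0.358). Bco1, which encodes the enzyme that cleaves beta-carotene to retinal, was at -0.58 in hADMSCs-Exo against REG (SE 0.18, adjusted p = 0.407) and at -1.03 against LFG (SE 0.39, adjusted p = 0.805), again without overlap. Without LFG 3, Rdh11 was called in REG (1.17, SE 0.30, adjusted p = 0.0402) and Bco1 in hADMSCs-Exo (-1.27, SE 0.28, adjusted p = 0.0426). The retinoid medians were then 0.32 and 0.21, with 4 of 23 genes called in REG (3 higher, 1 lower), beside 10.7% of all genes, and 1 of 23 in hADMSCs-Exo (lower), near the 5.97% of all genes.

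The ligands, receptors and partners of the members (39 in the table, 24 of them tested) had medians of -0.014 in hADMSCs-Exo against REG, 0.21 in REG against LFG and 0.19 in hADMSCs-Exo against LFG, and 0 were called. The medians against LFG were 0.29 and 0.37 over 25 genes without LFG 3, with 1 called higher and 2 lower in REG (10.7% of all genes) and 1 lower in hADMSCs-Exo (5.97%). Met, the receptor gene of hepatocyte growth factor, had 47.1, 56.9 and 68.1 CPM in LFG, 58.0, 73.0 and 77.6 CPM in REG, and 86.7, 87.0 and 85.5 CPM in hADMSCs-Exo. Its hADMSCs-Exo libraries were above all 6 others, by 0.31 over REG (SE 0.13, adjusted p = 0.49) and 0.58 over LFG (SE 0.19, adjusted p = 0.805), while those of its ligand gene Hgf were at 0.888 to 3.01 CPM. Without LFG 3, Met in hADMSCs-Exo was 0.74 over LFG (SE 0.16), with an adjusted p of 0.0418 that passed the threshold on p and not that on fold change.

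Hgfac, whose product activates hepatocyte growth factor, was at -0.18 in hADMSCs-Exo against REG (SE 0.13, adjusted p = 0.671). Colec10, which encodes the collectin that pairs with collectin-11, was at 1.09 in REG against LFG (SE 0.32, adjusted p = 0.353), with 8.13, 6.59 and 4.74 CPM in LFG and 17.6, 13.5 and 9.98 CPM in REG. Fcna, which encodes ficolin-A of the same complement pathway, was at 0.71 in hADMSCs-Exo against LFG (SE 0.21, adjusted p = 0.805), and Sort1, which encodes the co-receptor sortilin of p75, at -0.58 in REG against LFG (SE 0.21, adjusted p = 0.404). Without LFG 3 these 3 differences from LFG were 0.93 (SE 0.28), 0.65 (SE 0.19) and -0.43 (SE 0.20), none of them called. All 4 genes had groups that did not overlap in the comparison named.

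Markers of other cell types also differed between the groups. In hADMSCs-Exo against REG 9 of 10 sinusoidal endothelium markers were lower (median log2 fold change -0.73), and their sum was 109 to 338 CPM in hADMSCs-Exo, 163 to 451 CPM in REG and 100 to 249 CPM in LFG. As in the members, REG 1 (1.34 in log2 CPM above the average of the 9 libraries) and hADMSCs-Exo 2 (0.95) were the highest of their groups and LFG 3 (-1.07) the lowest of its group. Portal fibroblast markers (7 of 8 lower, median -0.51), lymphatic and vascular endothelium (7 of 8 lower, -0.55) and vascular smooth muscle (5 of 6 lower, -2.14) were also lower in hADMSCs-Exo against REG. The defining portal fibroblast genes Thy1, Eln and Fbln2 had counts in every library, and of those of smooth muscle Cnn1 was at 0 in LFG 3 and hADMSCs-Exo 1 and Actg2 in these and in hADMSCs-Exo 2. Portal fibroblast markers summed to 49.4 to 177 CPM in LFG, 85.5 to 163 CPM in REG and 87.6 to 132 CPM in hADMSCs-Exo, and smooth muscle markers to 71.2 to 118, 55.3 to 68.7 and 40.7 to 67.6 CPM. The part of these cells in the values of the members was not tested.

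Neutrophil markers (7 of 7 higher, median 0.64) and lymphocyte markers (8 of 10 higher, 0.46) went the other way in hADMSCs-Exo against REG. The medians were -0.12 for hepatocyte, 0.061 for Kupffer cell, -0.38 for cholangiocyte and 0.57 for mesothelium markers. None of the marker genes was called in that comparison. Nerve and Schwann cell markers, one of which is Ngfr itself, summed to 3.57 to 8.16 CPM in all 9 libraries, and the Schwann cell gene Sox10 had at most 1 count in any library.

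Against LFG, sinusoidal endothelium markers were higher in REG, as Pth1r and Vipr1 were (8 of 10 with a median of 0.86, and 8 of 10 with 0.61 without LFG 3). Lymphocyte (10 of 10, median 0.72, and 0.53 without LFG 3) and neutrophil markers (4 of 5, 0.81, and 0.93) were higher in REG too. Smooth muscle markers were lower in REG (7 of 7, median -0.52, and -1.03 without LFG 3). So were cholangiocyte (6 of 8, -0.69, and -1.05) and mesothelium markers (5 of 5, -0.60, and -1.27). In hADMSCs-Exo against LFG without LFG 3, where 7 of the 9 members were lower, so were 7 of 7 smooth muscle markers (median -3.24), 9 of 10 of lymphatic and vascular endothelium (-1.30), 8 of 10 of Kupffer cells (-0.64), 5 of 8 of portal fibroblasts (-2.02), 7 of 8 of cholangiocytes (-1.38) and 8 of 8 of mesothelium (-0.86). With all LFG libraries these 6 medians were -1.74, -0.59, -0.15, -1.53, -0.89 and -0.83. Fewer genes passed the filter there: 4 for smooth muscle, 8 for lymphatic and vascular endothelium, 7 for cholangiocytes and 6 for mesothelium. Part of the change in these medians is thus a change of genes. Lymphocyte markers were higher, 10 of 10 in both settings (medians 1.05 with LFG 3 and 0.78 without), as were 5 of 7 neutrophil markers without LFG 3 (median 1.70, and 1.82 with it). With all LFG libraries none of the marker genes was called in either comparison with LFG. Without LFG 3, the setting in which Hgf was called, 5 smooth muscle, 3 portal fibroblast, 2 cholangiocyte, 1 vascular endothelium and 1 Kupffer cell markers were called lower in hADMSCs-Exo, and 2 neutrophil and 1 hepatocyte markers higher (5.97% of all genes). In REG 3 portal fibroblast, 3 cholangiocyte, 1 vascular endothelium, 1 Kupffer cell and 1 mesothelium markers were then called lower and 2 hepatocyte markers higher (10.7% of all genes). The part of these cells in the members' values was not tested.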

How the data were processed

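RNA of mouse liver was measured in 12 samples, of which 9 were analysed here: LFG, REG and hADMSCs-Exo with 3 libraries each. The authors extracted RNA with Trizol, built libraries with an NEBNext Ultra kit and sequenced them on an Illumina platform. The deposited table holds raw counts per gene and FPKM, and the deposited FPKM could be recomputed from counts, gene length and library totals with a relative error of 9.19e-07 or less. The submitters' processing notes name cutadapt 1.15, HISAT2 2.0.5, HTSeq 0.9.1, DESeq 1.30.0 and GRCm38. The use of strand is not given in the sources used here. Columns named MSC_E were read as the exosome libraries.

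The test was run in edgeR 4.0.16 under R 4.3.3 (quasi-likelihood, TMM, its filter on low counts, only the 6 libraries compared). Log2 CPM used a prior count of 2. Tables were joined and drawn with Python 3.11.15, pandas 2.3.3 and matplotlib 3.10.9. The fits were also run on simulated counts with planted changes. These held no divergent library such as LFG 3, so that run does not speak to such a case. Alternatives were RLE size factors, DESeq2 1.42.0, limma 3.58.1 with voom and quality weights, no filter, 1 fit over all 9 libraries, the replicate block, a minimum of 10 counts in each library, other thresholds and each library left out. Scaling by library totals alone, and the differences between the mean of the members and that of another list, were chosen after seeing the data.

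The members, the lists and the comparisons were chosen with earlier results of these data known. Lists were written from general knowledge: retinoid handling, stellate cell identity (1 of 25 names, Tmem56, had no match), activated myofibroblast, ligands, receptors and partners of the members, and markers of 11 cell types. All members are named, and of each list but the markers up to 3 genes per comparison with the smallest p among those whose groups do not overlap, and the 10 genes most like the members. One gene that this rule names is not reported here. Replicates differed by more than sampling noise (chi-square per gene of 27.0 to 299.2), so none was counted as a repeat. At these depths counting error matters only for genes of few counts, such as Ngfr. Deviations of same-numbered libraries correlated by 0.107, 0.313 and 0.191 for hADMSCs-Exo and LFG, all over 0.1, which is the only ground for pairing there. For REG with hADMSCs-Exo these were 0.143, -0.00731 and 0.0273, and for REG with LFG 0.423, -0.207 and 0.315.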

Additional observations from a re-analysis of the deposited data

How the results depend on the processing

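For hADMSCs-Exo against REG all 125 values of single members under the alternatives kept their direction and none was called. The count of members called was 0 under every alternative with an adjusted p, and 1 (Colec11) with an unadjusted p and no limit on fold change. The median of the members ran from -0.94 to -0.28 with each library left out.

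Against LFG the count called was 1 (Hgf) without LFG 3 in both comparisons, and 0 to 1 with each library left out. In REG against LFG it was 1 (Hgf) with voom, 1 (Pth1r) with an unadjusted p and 2 (with Vipr1) when the limit on fold change was dropped too. The median ran from -1.18 to -0.42 in hADMSCs-Exo and from -0.52 to 0.32 in REG with each library left out. With at least 10 counts in every library, which keeps 7 members, it was -0.25 and 0.31. Library totals alone moved the median of all genes from -0.068 to -0.27 in REG and from -0.059 to -0.18 in hADMSCs-Exo, and that of the members to -0.35 and -1.04, and no member changed direction under it.

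With the replicate block the count called was 0 in all 3 comparisons, and the medians were -0.59, -0.49 and 0.25 for hADMSCs-Exo against REG, hADMSCs-Exo against LFG and REG against LFG. In REG against LFG the block reversed Lrat (0.23) and Ngfr (0.51). Ngfr, at -0.0056, also reversed with RLE size factors (0.0028), DESeq2 (0.022) and no filter (0.040). With each library left out it ran from -0.52 to 0.60, Lrat from -0.58 to 0.22 and Hand2 from -0.68 to 0.0022. In hADMSCs-Exo against LFG, Ecm1 ran from -0.55 (without hADMSCs-Exo 2) to 0.094 (without hADMSCs-Exo 1), Colec11 from -0.55 (without LFG 3) to 0.14 (without LFG 2) and Vipr1 from -0.091 (without hADMSCs-Exo 2) to 0.60 (without hADMSCs-Exo 1). None of these was called. The cause was not tested. Of the 10 genes most like the members, 5 were shared without LFG 3 and 2 with Spearman's rho. Depth limits Ngfr most, with 0 to 50 counts per library.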
